A study of Mus musculus with 36 samples.

Results

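The phagocyte NADPH oxidase subunits described here are 6 genes, Cybb, Cyba, Ncf1, Ncf4, Rac1 and Rac2, chosen by name from the 49568 gene rows of each of 2 RNA-seq count tables and followed in all 36 libraries. The cells were RAW264.7, a mouse macrophage-like cell line, so every library came from one line in culture. The peptides were synthetic 15-residue stretches of human HLA-DRβ chains, 65–79*SE carrying the shared epitope of an allele linked to rheumatoid arthritis risk and 65–79*PE carrying the protective epitope of an allele linked to protection. In the IFNγ table, peptide groups received IFNγ at 5 ng/ml and either peptide at 100 µg/ml, and those of the Il-4 table received Il-4 at 5 ng/ml and the same peptide doses, for 72 h in all groups. Each table also had a group labelled PBS, which had neither peptide. Its titles name the cytokine of the table, but the labels do not settle whether the PBS cells received it. Each of the 6 groups had 6 libraries, and replicates 1–3 and replicates 4–6 were named by different label schemes in every group. The 2 label sets are therefore shown apart, with 3 libraries of each group in each.

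The phagocyte NADPH oxidase passes electrons from cytosolic NADPH across a membrane to oxygen and so makes superoxide. Cybb (gp91phox, also called Nox2) carries the electrons and is held in the membrane by its partner Cyba (p22phox), while Ncf1 (p47phox), Ncf4 (p40phox) and the small GTPases Rac1 and Rac2 are cytosolic until the cell is stimulated and then join the membrane pair. In macrophages the enzyme serves the killing of ingested microbes, and IFNγ is a known inducer of Cybb transcription. Cybc1, a chaperone of the Cybb and Cyba pair, was not among the 6 but is given below for its role, chosen after its values were seen.

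Libraries held 20.7 to 63.2 M counts in the IFNγ table and 17.0 to 30.6 M in the Il-4 table, and every member was counted at least 2256 times in every library, so counting error was small beside the spread between libraries. Of 8 macrophage markers, 7 were counted in all 36 libraries and Mertk was at 0 to 0.417 CPM. Neutrophil markers stayed at or below 0.859 CPM and markers of other cell types at or below 0.251 CPM, with Ncr1 at 0 in all 36 libraries. Of 10 genes induced by IFNγ, all 10 were called higher than in PBS in the IFNγ table with 65–79*SE in replicates 1–3 and with 65–79*PE in both label sets, and 0 with 65–79*SE in replicates 4–6. For those 10 genes the summed level was 59.7 to 67.8 CPM in the libraries labelled 65–79*SE, replicates 4–6, against 67.1 to 83.5 CPM in PBS replicates 4–6 and 692 to 721 CPM with 65–79*PE replicates 4–6. These 3 libraries thus went against the IFNγ on their label, and results that rest on them name them. Of 8 genes induced by Il-4, 4 were tested in the Il-4 table, and all 4 were called higher in each peptide group except 65–79*SE in replicates 4–6, where 3 were. The summed level of the 8 was 2.58 to 4.25 CPM in PBS and 48.3 to 147 CPM with the peptides in that table. PBS libraries carried the response to neither cytokine, so a contrast against PBS holds the cytokine and the peptide together. The label sets also differed in histone transcripts, which mostly lack a poly(A) tail and took 0.00722% to 0.0187% of counts in replicates 1–3 and 0.236% to 0.629% in replicates 4–6 of the IFNγ table. In the Il-4 table the shares were 0.00553% to 0.0139% and 0.338% to 1.55%. The part of the library type in differences between label sets was not tested.

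Levels between genes were compared on one scale only, CPM (counts scaled to a common library total by TMM) divided by the length of exon in kilobases. On that scale Cyba was the highest of the 6 in all 12 combinations of table, label set and group, from 271 to 951 CPM per kb. Cybb was 1 of the 2 lowest in PBS of the IFNγ table, with means of 45.4 and 43.6 CPM per kb in the 2 label sets. With IFNγ and 65–79*SE in replicates 1–3 it was the third highest of the 6, at 95.6 CPM per kb, and with IFNγ and 65–79*PE in replicates 4–6 it was second only to Cyba, at 166 CPM per kb. The order of the others in the IFNγ table was Rac2, then Ncf4, Ncf1 and Rac1 in each of the 6 combinations, but not every step in it was clear. Library ranges of neighbours in the order overlapped for Cybb and Rac1 in PBS replicates 1–3, for Cybb and Ncf4 with 65–79*PE in replicates 1–3, for Rac2 and Ncf4 and for Ncf1 and Cybb in PBS replicates 4–6, and for Ncf4 and Ncf1 with either peptide in replicates 4–6. In the Il-4 table Cybb had the lowest mean of the 6 in all 3 groups of replicates 1–3, with library ranges that overlapped those of Rac1 in PBS, while in replicates 4–6 most neighbours below Cyba overlapped with 65–79*SE (4 of 5 steps) and in PBS (3 of 5 steps).

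**Figure D1:**
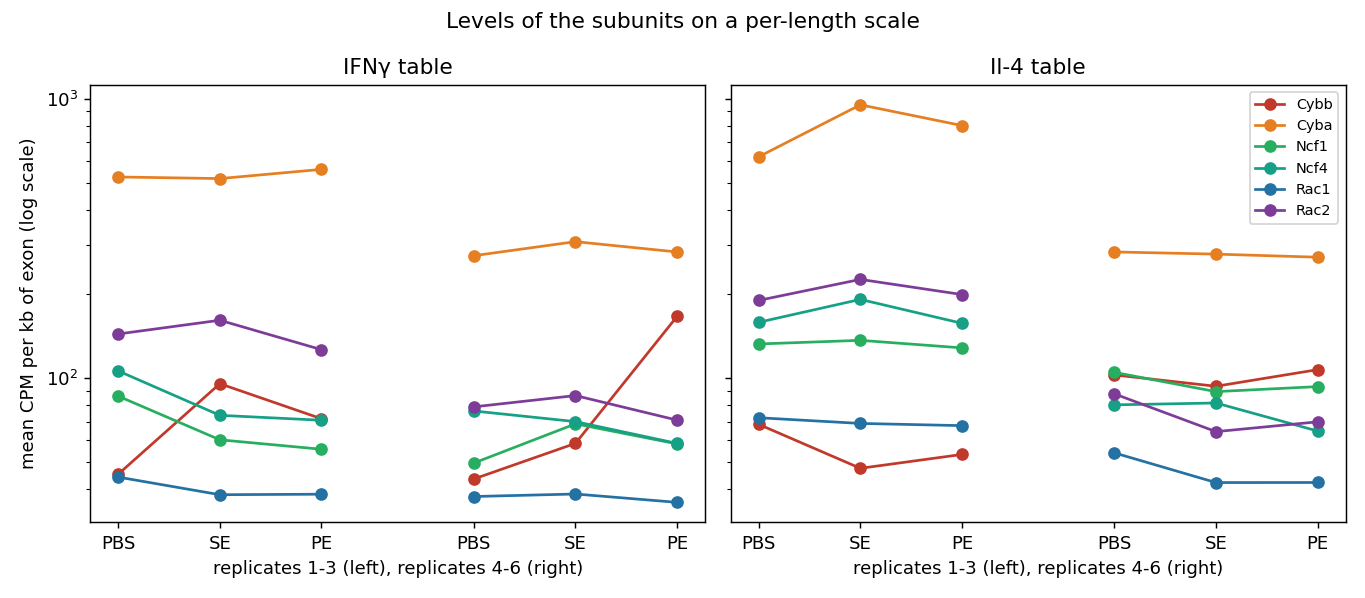
Mean CPM per kilobase of exon (log axis) of each subunit in PBS, 65–79*SE (SE) and 65–79*PE (PE), with replicates 1–3 at the left and 4–6 at the right of each panel; each point is the mean of 3 libraries and lines join the groups of a label set. Cyba lies on top throughout, and Cybb climbs from 43.6 in PBS to 166 CPM per kb with 65–79*PE in replicates 4–6 of the IFNγ table.

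Rac1 and Ncf1 share exon bases with a gene on the other strand. The exons of Rac1 share 2309 bases, 51.4% of their length, with Daglb, and those of Ncf1 share 408 bases, 11.1%, with Gtf2ird2. The study's methods name a stranded library kit, but the strand setting of the counting was not given in the sources used here, so the levels of Rac1 and, to a lesser degree, Ncf1 are uncertain, and the place of Rac1 as the lowest of the 6 per kilobase in 9 of the 12 combinations may not hold. The other matches of a member to a transcript of another gene, of Cyba and Rac2, were 101 to 145 bases long, at a minimum of 95% identity over 100 bases.

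The first question was what IFNγ with either peptide did to the membrane pair. Cybb was higher than in PBS with both peptides and Cyba was not. Cybb (ENSMUSG00000015340.10, GRCm38 chromosome X, 9435252 to 9487771, minus strand) had CPM of 297, 239 and 254 in PBS replicates 1–3, 585, 488 and 593 with 65–79*SE and 438, 459 and 351 with 65–79*PE. All 6 peptide libraries were above all 3 PBS libraries, and every 65–79*SE library was above every 65–79*PE library. The means were 264 ± 29.982 (SD, n = 3), 555 ± 58.5 and 416 ± 57.7 CPM. In the quasi-likelihood test of edgeR, the log2 fold change against PBS was 1.07 (adjusted p 1.74e-07, SE 0.11) with 65–79*SE and 0.66 (adjusted p 8.14e-05, SE 0.11) with 65–79*PE. A gene was called when its adjusted p-value was under 0.05 and its fold change over 1.5 in either direction. By that rule Cybb rose with both peptides in replicates 1–3, although without replicate 2 of 65–79*PE its fold there was just short of the limit (0.58 on the log2 scale, adjusted p 0.000765). All genes called made up 21.2% of the 16845 tested with 65–79*SE and 18.5% with 65–79*PE in these libraries, so 1 of 6 members called for 65–79*SE was near the background.

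In replicates 4–6 the same gene moved furthest with 65–79*PE. Cybb was at 262, 255 and 243 CPM in PBS and at 1120.3, 869.7 and 909 CPM with 65–79*PE, and the lowest of the latter was over 3 times the highest of the former. The log2 fold change was 1.93 (adjusted p 6.85e-11, SE 0.11), and it was the sole member called, against 11.2% of all genes. In the libraries labelled 65–79*SE, replicates 4–6, Cybb was at 359.6, 315 and 344 CPM, above all 3 PBS libraries and below all 3 of 65–79*PE. That difference from PBS was 0.42 (adjusted p 0.0335, SE 0.11), under the fold limit. No member was called there (0 of 6, with 3 at an unadjusted p under 0.05 in edgeR and 0 called by DESeq2, against 2.04% of all genes, which is 343 genes and 102 to 577 with 1 library left out). The response of Cybb to 65–79*PE with IFNγ was larger in replicates 4–6 than in replicates 1–3 by 1.27 (adjusted p 8.63e-05, SE 0.16) on the log2 scale, so its size differed between label sets while its direction did not. For 65–79*SE the difference between label sets was -0.65 (adjusted p 0.00271, SE 0.16), with the 3 libraries that lacked the IFNγ response on one side of it. Averaged over both label sets, Cybb rose with 65–79*PE by 1.30 (adjusted p 6.56e-11, SE 0.08). The average for 65–79*SE, 0.75 (adjusted p 7.25e-07, SE 0.08), mixes replicates 1–3 with the 3 libraries that lacked the IFNγ response, without which the value is that of replicates 1–3 (1.07). It was not called in a model with label set as an additive term (adjusted p 0.0505) or without it (adjusted p 0.242). Cybb was the sole member called in either average, where 14.4% and 5.98% of all genes were.

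**Figure D2:**
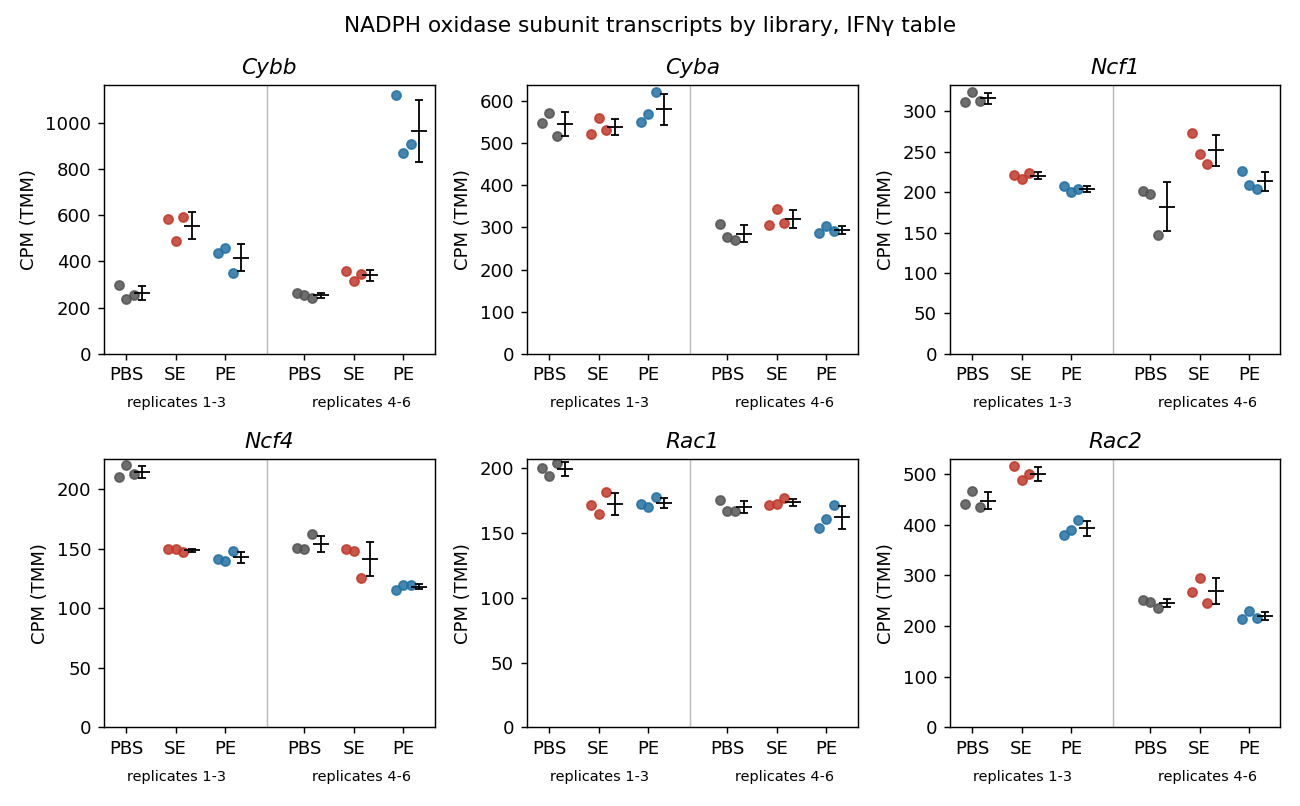
CPM of each subunit in the 18 libraries of the IFNγ table, in PBS (grey), 65–79*SE (SE, red) and 65–79*PE (PE, blue), with replicates 1–3 at the left and 4–6 at the right of each panel; each point is 1 library, and bars show the mean and SD of 3. Cybb is above PBS of its label set in all 12 peptide libraries, 3 of which (65–79*SE, replicates 4–6) lacked the IFNγ response, whereas Ncf4 is below PBS in the 6 peptide libraries of replicates 1–3 and in the 3 of 65–79*PE in replicates 4–6.

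Cyba (ENSMUSG00000006519.11, chromosome 8, 122424776 to 122432930, minus strand) stayed near PBS in the same libraries. It was at 548, 572 and 516 CPM in PBS replicates 1–3, 523, 560.0 and 532 with 65–79*SE and 551, 570.0 and 621 with 65–79*PE. Library ranges overlapped between PBS and each peptide. The 95% intervals of the log2 fold change against PBS were -0.16 to 0.13 and -0.05 to 0.23, which leave out a change of 1.5-fold in either direction. The intervals in replicates 4–6 were 0.02 to 0.31 for the libraries labelled 65–79*SE and -0.10 to 0.19 for 65–79*PE. The level of Cybb relative to Cyba, per kilobase of exon, was 0.0748 to 0.0970 in PBS replicates 1–3, 0.156 to 0.200 with 65–79*SE and 0.101 to 0.144 with 65–79*PE. The ratio in replicates 4–6 was 0.153 to 0.165 in PBS, 0.164 to 0.210 in the libraries labelled 65–79*SE and 0.512 to 0.697 with 65–79*PE. With 65–79*PE all 3 libraries of each label set had a higher ratio than every PBS library of that set.

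The promoters of Cybb and Ncf1 are shown because these members were called in opposite directions with 65–79*PE in replicates 1–3. Each sequence is the 250 bases before the start of the gene in RefSeq on GRCm38.p6, 5′ to 3′ on the minus strand, with matches to the motifs searched in capitals.
Cybb, chrX:9469325-9469574: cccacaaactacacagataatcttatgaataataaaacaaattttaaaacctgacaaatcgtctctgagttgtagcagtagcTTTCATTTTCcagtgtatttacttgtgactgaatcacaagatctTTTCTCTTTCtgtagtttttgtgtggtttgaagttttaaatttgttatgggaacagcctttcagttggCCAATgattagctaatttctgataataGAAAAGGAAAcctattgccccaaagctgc
Ncf1, chr5:134229626-134229875: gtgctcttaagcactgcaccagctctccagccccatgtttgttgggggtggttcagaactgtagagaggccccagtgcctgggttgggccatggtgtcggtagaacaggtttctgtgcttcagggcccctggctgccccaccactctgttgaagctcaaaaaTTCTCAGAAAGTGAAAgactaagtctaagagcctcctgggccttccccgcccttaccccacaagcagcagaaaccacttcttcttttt
Both strands of the window from 250 bases before to 50 after the start were searched for 5 motifs. They were the GAS element (TTCNNNGAA), the ISRE pattern bound by interferon regulatory factors (GAAA, then any 2 bases, then GAAA), a PU.1 site (GAGGAAGT), a CCAAT box (CCAAT) and a TATA box (TATAAA). Among 32544 promoters of this length these were found in 8.33%, 3.45%, 3.11%, 37.4% and 13.6%. Cybb held the ISRE pattern 3 times, at bases -168, -124 and -29 from the start, and a CCAAT box at -56, and 0.0154% of promoters held the ISRE pattern at least 3 times. That limit of 3 is the number found in Cybb itself, and such a share was computed for no other motif, so it is a description. Ncf1 held a GAS element at -88 and an ISRE pattern at -82 that share 3 bases. The Cyba window held no match to these letters. A match describes the letters of the window and is not a bound site, and of the 6 members these 3 had an entry. The RefSeq start of Cybb lies within the longer gene span given above.

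The cytosolic subunits that organise the complex, Ncf1 and Ncf4, were lower than in PBS with both peptides in replicates 1–3 of the IFNγ table. Ncf1 (ENSMUSG00000015950.13, chromosome 5, 134220053 to 134229625, minus strand), the organiser that carries the other cytosolic subunits to the membrane, was at 311, 324 and 313 CPM in PBS, 221, 216 and 224 with 65–79*SE and 208, 200.2 and 204 with 65–79*PE. The 3 groups did not overlap. Its log2 fold change was -0.63 (adjusted p 1.26e-05, SE 0.09) with 65–79*PE, a called fall, and -0.52 (adjusted p 8.77e-05, SE 0.09) with 65–79*SE, under the fold limit. With Cybb and Ncf4 this made 3 of 6 members called with 65–79*PE in replicates 1–3, against 18.5% of all genes, and DESeq2 called 2. Ncf4 (ENSMUSG00000071715.12, chromosome 15, 78244801 to 78262580, plus strand), which binds a membrane phosphoinositide and sustains oxidase activity on phagosomes, was at 211, 220.3 and 213 CPM in PBS, 149.6, 149 and 147 with 65–79*SE and 141, 139.6 and 148 with 65–79*PE. All peptide libraries were below all PBS libraries, and the peptides overlapped. The log2 fold change was -0.59 (adjusted p 6.68e-07, SE 0.07) with 65–79*PE and -0.53 (adjusted p 1.72e-06, SE 0.07) with 65–79*SE. The call for 65–79*PE stood at the fold limit and was lost under 5 other settings of the analysis, with log2 fold changes of -0.57 to -0.55 and adjusted p up to 2.04e-06, and with PBS replicate 2, 65–79*PE replicate 1 or 65–79*PE replicate 2 left out. In these libraries the summed level of the 8 macrophage markers was 6613 to 7596 CPM in PBS. It was 5364 to 5803 CPM with 65–79*SE and 4627 to 4726 CPM with 65–79*PE. The markers did not all move the same way. Of 7 tested, 2 were called higher and 0 lower with 65–79*SE, and 1 higher and 1 lower with 65–79*PE. The shares of all genes called were 21.2% and 18.5%. At any fold with an adjusted p under 0.05, 3 were higher and 3 lower with 65–79*SE, and 2 higher and 5 lower with 65–79*PE. The part of these markers in the lower levels of Ncf1 and Ncf4 was not tested. In bulk samples of 1 cell line, fewer cells with a transcript and less of it per cell cannot be told apart.

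In replicates 4–6 Ncf4 was below PBS and Ncf1 above it with 65–79*PE, neither of them called. Ncf4 was at 151, 150.1 and 162 CPM in PBS and 115, 119 and 119 with 65–79*PE, with no overlap and a log2 fold change of -0.39 (adjusted p 0.000174, SE 0.07), under the fold limit. Ncf1 was at 202, 198 and 147 CPM in PBS and 227, 209 and 204 with 65–79*PE, a log2 fold change of 0.23 (adjusted p 0.0709, SE 0.09). Every 65–79*PE library was above every PBS library, the opposite order to replicates 1–3. The difference between label sets was 0.86 (adjusted p 0.000384, SE 0.13) for Ncf1 and 0.20 (adjusted p 0.173, SE 0.09) for Ncf4. Together with Cybb, Ncf1 was 1 of 2 members for which this difference was called, against 5.74% of all genes (967 genes, 587 to 1119 with 1 library left out). In the libraries labelled 65–79*SE, replicates 4–6, Ncf1 was at 273, 247 and 235 CPM, above every PBS library, with a log2 fold change of 0.47 (adjusted p 0.00703, SE 0.09). The difference between label sets for 65–79*SE was 0.98 (adjusted p 4.88e-06, SE 0.13) for Ncf1 and 0.40 (adjusted p 0.00203, SE 0.09) for Ncf4, with Cybb and Ncf1 called (2 of 6 members, 22.8% of all genes). PBS replicate 6 was low for Ncf1 and also for the macrophage markers Csf1r (251 CPM, against 404 and 409 in PBS replicates 4 and 5) and Lyz2 (1866 CPM, against 3113 and 3114). These markers were also the genes most like Ncf1 in pattern over the IFNγ table. The other markers of the list are not given for this library, so a general fall of the markers is not shown. The part of PBS replicate 6 in the order of Ncf1 was not tested. The lowest 65–79*PE library of replicates 4–6 had Ncf1 at 204 CPM, against 202 and 198 in PBS replicates 4 and 5. The summed macrophage markers were 3736 to 5134 CPM in PBS, 6510 to 7447 CPM in the libraries labelled 65–79*SE and 5441 to 6179 CPM with 65–79*PE of replicates 4–6. Of 7 markers tested, 1 was called higher and 1 lower in the libraries labelled 65–79*SE (2.04% of all genes). With 65–79*PE 2 were called higher and 0 lower (11.2% of all genes). The part of these markers was not tested either. The level of Ncf1 relative to Ncf4 per kilobase was 0.810 to 0.815 in PBS replicates 1–3 and 0.760 to 0.813 with 65–79*PE, and 0.499 to 0.738 and 0.943 to 1.08 in replicates 4–6.

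Neither GTPase was called against PBS in the IFNγ table. Rac2 (ENSMUSG00000033220.7, chromosome 15, 78559167 to 78572783, minus strand), the form found mainly in blood cells, was at 441, 466 and 434 CPM in PBS replicates 1–3, 515, 487 and 499 with 65–79*SE and 380.1, 389 and 409 with 65–79*PE. The 65–79*SE libraries were all above PBS and the 65–79*PE libraries all below it. Against PBS the log2 fold changes were 0.16 (adjusted p 0.0542, SE 0.07) and -0.19 (adjusted p 0.0303, SE 0.07), neither called. Those in replicates 4–6 were 0.13 (adjusted p 0.287, SE 0.07) for the libraries labelled 65–79*SE and -0.16 (adjusted p 0.0929, SE 0.07) for 65–79*PE. Rac1 (ENSMUSG00000001847.14, chromosome 5, 143503634 to 143528036, minus strand), the widely expressed form, was at 199.9, 194 and 204 CPM in PBS replicates 1–3, 171, 164 and 181 with 65–79*SE and 172, 169.9 and 177 with 65–79*PE. The peptide libraries were all below PBS, with log2 fold changes of -0.21 (adjusted p 0.00621, SE 0.06) and -0.20 (adjusted p 0.00825, SE 0.06), under the fold limit. In replicates 4–6 the 95% interval of the Rac1 change was -0.19 to 0.05 with 65–79*PE and -0.09 to 0.15 in the libraries labelled 65–79*SE. The 2 Rac genes differed in level by 3.08 to 3.48 times per kilobase, Rac2 over Rac1, in PBS replicates 1–3 and by 2.04 to 2.16 times in PBS replicates 4–6, a ratio subject to the overlap of Rac1 with Daglb.

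Cybc1, listed in the tables as BC017643, was higher with IFNγ and 65–79*PE by less than 1.5-fold. It was at 32.8, 30.002 and 32.5 CPM in PBS replicates 1–3, 39.3, 37.1 and 39.6 with 65–79*SE and 36.4, 37.9 and 40.1 with 65–79*PE. All peptide libraries were above all PBS libraries. The log2 fold changes with 65–79*PE were 0.26 (adjusted p 0.00318, SE 0.07) in replicates 1–3 and 0.41 (adjusted p 0.000118, SE 0.07) in replicates 4–6.

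The direct comparison asked whether the 2 peptides differed under the same cytokine, over 6 members in each label set and table. With IFNγ in replicates 1–3, 65–79*SE exceeded 65–79*PE for Cybb by 0.42 (adjusted p 0.012, SE 0.11) and for Rac2 by 0.35 (adjusted p 0.00096, SE 0.07), both under the fold limit, so 0 of 6 members were called (2 at an unadjusted p under 0.05 in edgeR, 0 called by DESeq2) against 5.33% of all genes. For the other 4 the 95% intervals of the log2 difference were -0.25 to 0.04 (Cyba), -0.08 to 0.30 (Ncf1), -0.08 to 0.20 (Ncf4) and -0.13 to 0.12 (Rac1). In replicates 4–6 Cybb was lower in the libraries labelled 65–79*SE by a log2 fold change of -1.51 (adjusted p 3.07e-09, SE 0.11), the sole member called against 13.9% of all genes, and these are the libraries without the IFNγ response. The order of the peptides for Cybb was thus opposite in the label sets, and the difference between them was -1.92 (adjusted p 1.59e-08, SE 0.16) (1 of 6 members, 16.6% of all genes). For Rac2 every library labelled 65–79*SE was above every 65–79*PE library in both label sets, with 0.29 (adjusted p 0.00219, SE 0.07) in replicates 4–6. There the libraries labelled 65–79*SE lacked the IFNγ response, so the peptide and that response cannot be told apart. Averaged over both label sets, and so with the 3 libraries that lacked the IFNγ response among 65–79*SE, 0 of 6 members were called (4 at an unadjusted p under 0.05, 0 by DESeq2) against 6.48% of all genes, with Rac2 at 0.32 (adjusted p 4.09e-05, SE 0.05) and Cybb at -0.55 (adjusted p 3.08e-05, SE 0.08). Without 65–79*PE replicate 3 the averaged Cybb difference was -0.60 and was called.

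**Figure D3:**
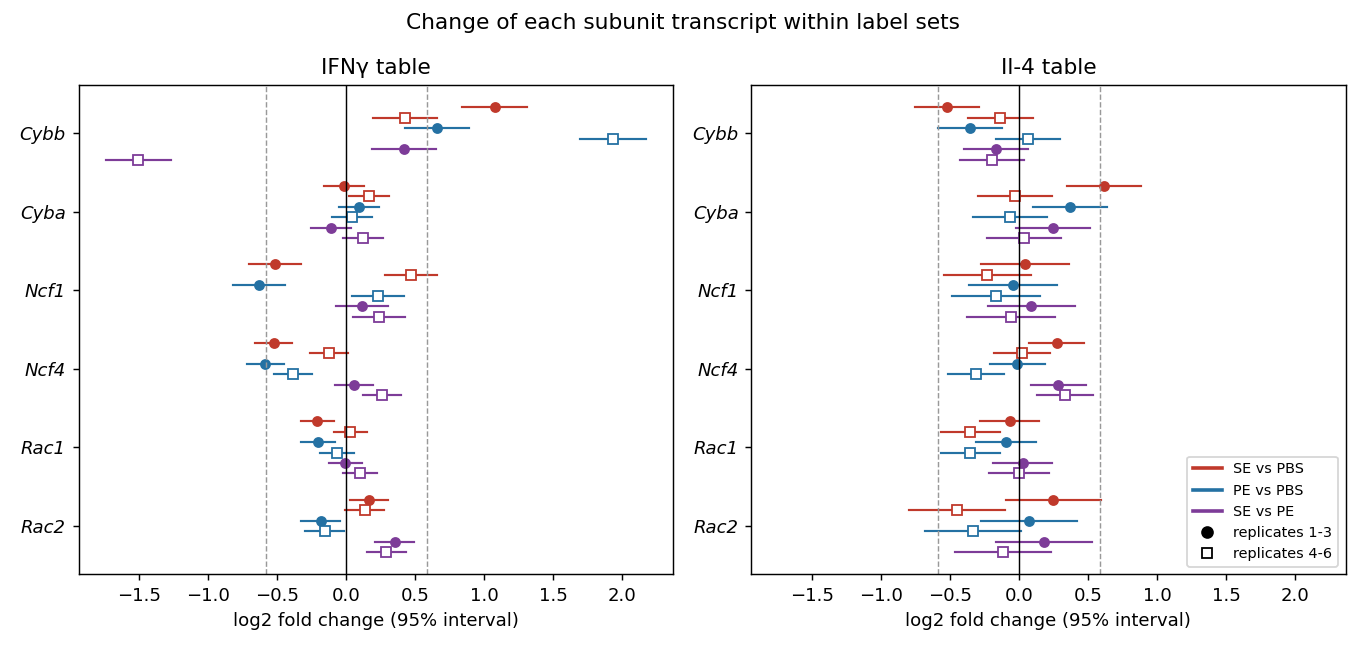
Log2 fold change of each subunit within each label set, from edgeR, with 65–79*SE against PBS in red, 65–79*PE against PBS in blue and 65–79*SE against 65–79*PE in purple; circles are replicates 1–3, open squares are replicates 4–6, bars are 95% intervals and dashed lines mark a change of 1.5-fold. With IFNγ (left) Cybb lies to the right of 0 in all 4 contrasts against PBS, from 0.42 in the libraries labelled 65–79*SE, replicates 4–6, which lacked the IFNγ response, to 1.93, and with Il-4 (right) most intervals lie between the dashed lines.

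With Il-4 in replicates 1–3 Cyba rose with 65–79*SE, and Cybb was lower than in PBS without being called. Cybb was at 371, 404 and 416 CPM in PBS, 319.6, 249.6 and 261 with 65–79*SE and 334, 302 and 295 with 65–79*PE, all 6 peptide libraries being below all PBS libraries. The log2 fold changes were -0.52 (adjusted p 0.00677, SE 0.11) and -0.36 (adjusted p 0.0598, SE 0.11), neither called. Cyba was at 634, 625.1 and 674 CPM in PBS, 847, 1152 and 965 with 65–79*SE and 839.6, 793 and 867 with 65–79*PE, all peptide libraries being above PBS. Its log2 fold change with 65–79*SE was 0.62 (adjusted p 0.00592, SE 0.13), and the value with 65–79*PE was 0.37 (adjusted p 0.0853, SE 0.13). It was the sole member called with 65–79*SE, against 6.17% of the 14183 genes tested (875 genes, 346 to 1589 with 1 library left out). That call rested on replicate 2 of 65–79*SE, its highest library, without which the log2 fold change was 0.50 (adjusted p 0.0420), while without replicate 1 Cybb was called as well (-0.64, adjusted p 0.00120). The level of Cybb relative to Cyba per kilobase was 0.105 to 0.116 in PBS, 0.0388 to 0.0675 with 65–79*SE and 0.0608 to 0.0711 with 65–79*PE in these replicates.

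**Figure D4:**
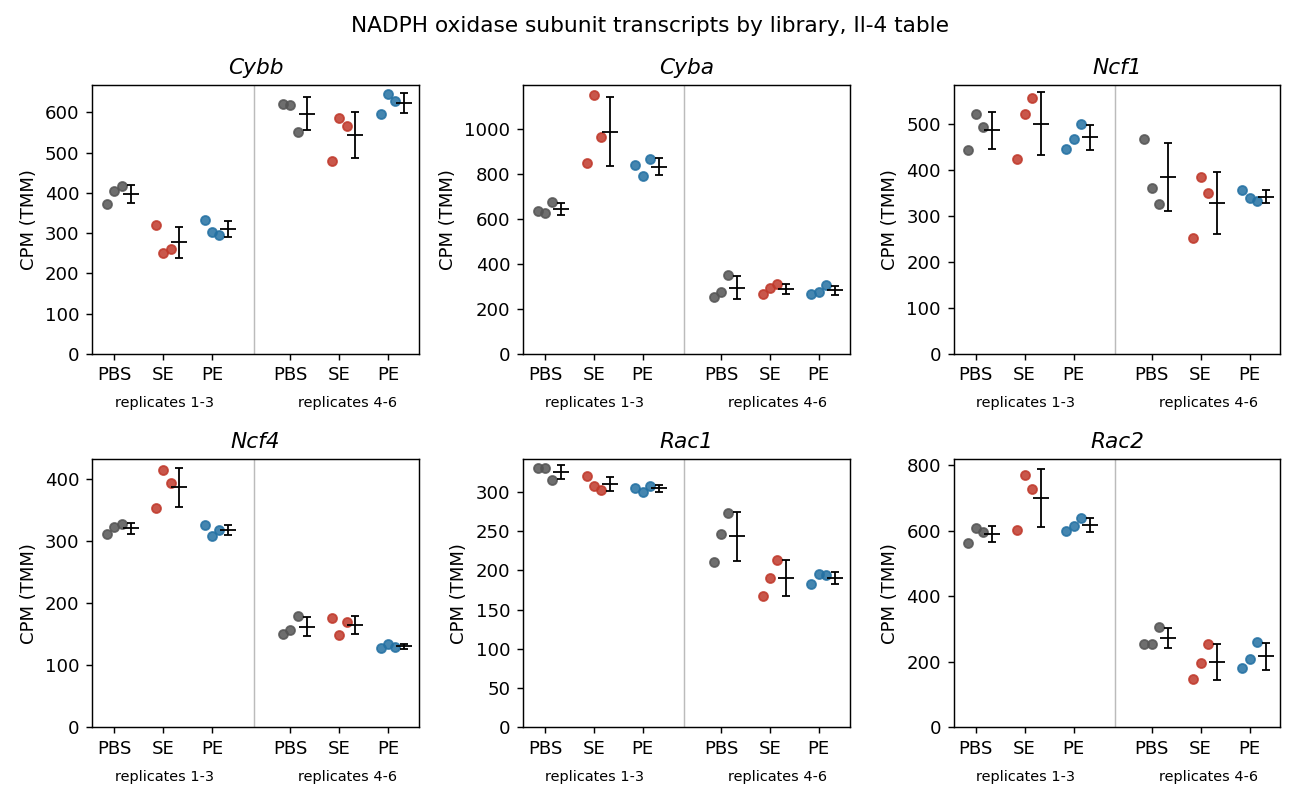
CPM of each subunit in the 18 libraries of the Il-4 table, in PBS (grey), 65–79*SE (SE, red) and 65–79*PE (PE, blue), with replicates 1–3 at the left and 4–6 at the right of each panel; each point is 1 library, and bars show the mean and SD of 3. Cyba is above PBS and Cybb below it in the 6 peptide libraries of replicates 1–3, and the peptide libraries of both genes overlap PBS in replicates 4–6.

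Neither gene was called in replicates 4–6 of the Il-4 table. Cybb was at 621, 619 and 550.4 CPM in PBS, 478, 587 and 565 with 65–79*SE and 597, 645 and 629 with 65–79*PE, and Cyba at 253, 277 and 352, 265, 291 and 309.8 and 266, 274 and 305. Peptide libraries overlapped PBS for both genes. For 65–79*SE 0 of 6 members were called (2 at an unadjusted p under 0.05 in edgeR, 0 by DESeq2) against 2.21% of all genes (313 genes, 144 to 656 with 1 library left out), and without 65–79*SE replicate 6 there was 1, Rac2, at -0.64 (adjusted p 0.0276). The difference between label sets in the response to 65–79*SE was -0.64 (adjusted p 0.0506, SE 0.18) for Cyba and -0.70 (adjusted p 0.0853, SE 0.23) for Rac2, so 0 of 6 were called (3 at an unadjusted p under 0.05) against 3.91% of all genes (554 genes, 0 to 1656 with 1 library left out). DESeq2 called both (adjusted p 0.0101 and 0.0379), as did a fit with the replicate number as a block (adjusted p 0.0109 and 0.00563). With 65–79*PE 0 of 6 members were called in replicates 1–3 (2 at an unadjusted p under 0.05, 0 by DESeq2, 3.48% of all genes), in replicates 4–6 (2, 0 and 3.58%) or averaged over both (2, 0 and 4.38%). Averaged over both label sets, 65–79*SE gave 0 of 6 (4, 0 and 3.1%), with Cybb at -0.33 (adjusted p 0.0155, SE 0.08) and Cyba at 0.30 (adjusted p 0.047, SE 0.09).

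The cytosolic subunits stayed within 1.5-fold of PBS in the Il-4 table by point estimates in both label sets. Ncf1 was at 443, 521 and 493 CPM in PBS replicates 1–3, 424, 522 and 555 with 65–79*SE and 444, 467 and 499 with 65–79*PE, and the groups overlapped. Ncf4 was at 311, 323 and 327 CPM in PBS, 352, 414 and 394 with 65–79*SE and 326, 309 and 318 with 65–79*PE, the 65–79*SE libraries lying above both other groups. Its log2 fold change with 65–79*SE was 0.27 (adjusted p 0.066, SE 0.10), which did not pass. Rac2 was at 255, 255 and 308 CPM in PBS replicates 4–6, 147, 198 and 255 with 65–79*SE and 181, 208 and 261 with 65–79*PE, the 65–79*SE libraries lying below all PBS libraries, the highest of them by a narrow margin. Its log2 fold change with 65–79*SE was -0.45 (adjusted p 0.139, SE 0.17), in libraries whose summed macrophage markers were 3210 to 5245 CPM against 5114 to 6057 CPM in PBS. Of 7 markers tested there, 1 was called higher and 0 lower (2.21% of all genes). The part of these markers was not tested. Rac1 was at 210.2, 246 and 273 CPM in PBS replicates 4–6, 167, 190.3 and 213 with 65–79*SE and 182, 196 and 194 with 65–79*PE. It had the one change against PBS with 65–79*PE under an adjusted p of 0.05, -0.22 (adjusted p 0.0483, SE 0.07) over both label sets, and was under the fold limit. Between the peptides with Il-4, 0 of 6 members were called in replicates 1–3, replicates 4–6 or their average (1, 1 and 2 at an unadjusted p under 0.05 in edgeR, 0 by DESeq2), and 0% of all genes were. Of all 14183 genes, 570, 1321 and 1314 were at an unadjusted p under 0.05 there, and DESeq2 called 0, 47 and 23. The averaged log2 difference, 65–79*SE minus 65–79*PE, had 95% intervals of -0.35 to -0.02 for Cybb, -0.05 to 0.33 for Cyba, -0.21 to 0.24 for Ncf1, 0.17 to 0.45 for Ncf4, -0.14 to 0.17 for Rac1 and -0.21 to 0.28 for Rac2. All 6 intervals lay inside a change of 1.5-fold, and those of Cybb and Ncf4 did not hold 0, with differences of -0.18 (adjusted p 0.498, SE 0.08) and 0.31 (adjusted p 0.222, SE 0.07), neither of which passed after adjustment.

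Whether a response differed between the cytokine tables was tested as the change against PBS in the IFNγ table minus that in the Il-4 table, in one model of both tables on 17201 genes. In replicates 1–3 the difference with 65–79*SE was 1.53 (adjusted p 1.25e-08, SE 0.16) for Cybb, -0.86 (adjusted p 6.43e-07, SE 0.11) for Ncf4, -0.70 (adjusted p 0.000576, SE 0.15) for Cyba and -0.63 (adjusted p 0.0112, SE 0.19) for Ncf1. These 4 of 6 members were called, against 19.7% of all genes. With 65–79*PE in replicates 1–3 it was 1.00 (adjusted p 2.18e-05, SE 0.16) for Cybb, -0.60 (adjusted p 0.022, SE 0.19) for Ncf1 and -0.59 (adjusted p 0.000258, SE 0.11) for Ncf4, 3 of 6 against 13.4%. The 65–79*PE difference in replicates 4–6 was 1.80 (adjusted p 6.99e-10, SE 0.16) for Cybb alone, 1 of 6 against 11.6%. Averaged over both label sets with 65–79*PE, Cybb was called at 1.40 (adjusted p 2.27e-11, SE 0.11) and Ncf4 was at -0.36 (adjusted p 0.000628, SE 0.08), under the fold limit (1 of 6, 14.8%). Cybb was thus the only member called in all 4 of these comparisons, the last of which averages those with 65–79*PE in both label sets. Each table had its own PBS group, so cytokine and table cannot be told apart. Mean Cybb in PBS replicates 1–3 and 4–6 was 264 and 253 CPM in the IFNγ table and 397 and 597 CPM in the Il-4 table. The part of these PBS levels was not tested. The calls of Ncf1 and Ncf4 with 65–79*PE lay close to the fold limit. Without Il-4 65–79*SE replicate 2 the 4 calls with 65–79*SE became 2, and without IFNγ PBS replicate 2 or Il-4 PBS replicate 1 the 3 calls with 65–79*PE in replicates 1–3 became 1.

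Of genes known as transcription factors of Cybb, a list of 7, 3 were called higher with 65–79*SE in replicates 1–3 of the IFNγ table, 4 with 65–79*PE in replicates 1–3 and 3 with 65–79*PE in replicates 4–6, and 0 in the libraries labelled 65–79*SE, replicates 4–6 (1 at an unadjusted p under 0.05 in edgeR, 0 called by DESeq2). The shares of all genes called in these comparisons were 21.2%, 18.5%, 11.2% and 2.04%. The median log2 fold change of the 7 was 0.51, 0.61, 0.48 and 0.0042 in these comparisons, against -0.04, -0.04, -0.00093 and -0.0033 over all genes tested. Irf1, an interferon regulatory factor, was at 15.2, 16.001 and 14.4 CPM in PBS replicates 1–3, 64.5, 66.6 and 73.0 with 65–79*SE and 98.4, 102 and 116 with 65–79*PE. Irf1 in replicates 4–6 was at 14.0, 14.4 and 13.6 CPM in PBS, 13.7, 14.6 and 13.0 in the libraries labelled 65–79*SE and 115, 119 and 116 with 65–79*PE. Irf1 was thus highest with 65–79*PE in both label sets, whereas Cybb in replicates 1–3 was highest with 65–79*SE. Irf8, a factor of myeloid cells, was at 65.1, 70.0 and 76.9 CPM in PBS replicates 1–3, 141, 124 and 137 with 65–79*SE and 107, 109 and 110.0 with 65–79*PE, the same order of groups as Cybb. The log2 fold changes of Irf8 were 0.92 (adjusted p 1.30e-09, SE 0.07) and 0.62 (adjusted p 4.78e-07, SE 0.07), and 0.99 (adjusted p 9.74e-10, SE 0.07) with 65–79*PE in replicates 4–6. With Il-4 0 of 7 were called against PBS in either label set by either peptide (0 to 3 at an unadjusted p under 0.05 in edgeR, 0 called by DESeq2). The shares of all genes called in replicates 1–3 and 4–6 were 6.17% and 2.21% with 65–79*SE and 3.48% and 3.58% with 65–79*PE.

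**Figure D5:**
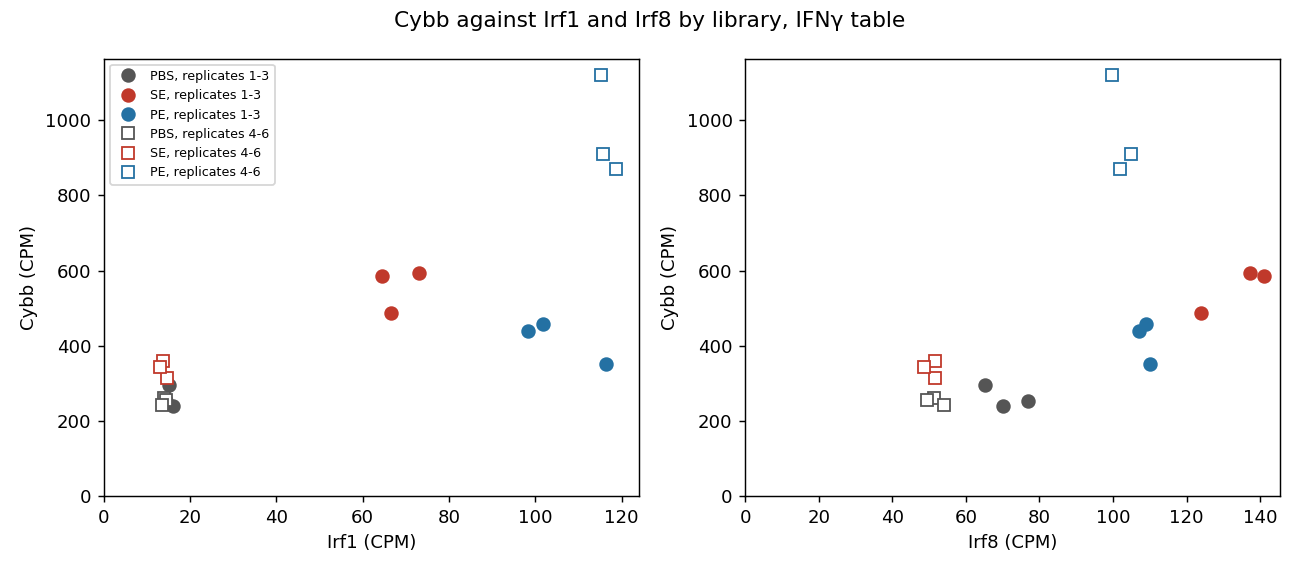
Cybb against Irf1 (left) and Irf8 (right) in CPM in the 18 libraries of the IFNγ table; filled circles are replicates 1–3, open squares are replicates 4–6, and colours give PBS (grey), 65–79*SE (red) and 65–79*PE (blue). The libraries labelled 65–79*SE, replicates 4–6, lie beside PBS on both horizontal axes, while 65–79*PE replicates 4–6 have Cybb of 869.7 to 1120.3 CPM at Irf8 levels no higher than in 65–79*PE replicates 1–3.

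Of 14 further oxidase genes (among them Cybc1, the Rap1 GTPases, Rac3 and the other NADPH oxidases with their partners) 8 were tested in the IFNγ table, and 0 were called with 65–79*PE in either label set or their average (4, 2 and 3 at an unadjusted p under 0.05 in edgeR, 0 called by DESeq2). The shares of all genes called in replicates 1–3, 4–6 and their average were 18.5%, 11.2% and 14.4%. With 65–79*SE in replicates 1–3, 1 of the 8 was called, against 21.2% of all genes. It was Rac3, a further Rac GTPase, at -1.50 (adjusted p 0.0021, SE 0.36), named after its value was seen. The Il-4 table had 6 of the further oxidase genes tested and 0 called with 65–79*PE in either label set or their average (1, 0 and 1 at an unadjusted p under 0.05, 0 called by DESeq2). The shares of all genes called were 3.48%, 3.58% and 4.38%. Genes that control Rac or phosphorylate the subunits, a list of 15 with 14 tested, were called lower with 65–79*PE and IFNγ in 5 cases in replicates 1–3 and 2 in replicates 4–6. With Il-4 and 65–79*PE 1 was called lower in replicates 1–3, and 2 lower and 1 higher in replicates 4–6, against 3.48% and 3.58% of all genes. With IFNγ and 65–79*PE, Tiam1, an exchange factor for Rac, had a log2 fold change of -1.52 (adjusted p 2.47e-05, SE 0.23) in replicates 1–3 and -1.42 (adjusted p 3.69e-05, SE 0.21) in replicates 4–6. Prkca, a protein kinase C, fell with 65–79*PE under both cytokines and in both label sets, with log2 fold changes of -0.62 and -0.94 with IFNγ and -0.89 and -0.75 with Il-4. Prex1, an exchange factor, was called in replicates 1–3 with IFNγ and not in replicates 4–6 (-1.02 and -0.07 with 65–79*PE).

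Among 10 genes that handle protons, superoxide or peroxide beside the oxidase, of which 9 were tested in the IFNγ table, the peroxide-removing enzymes Prdx1 and Prdx5 stood out. Prdx5 rose with 65–79*PE by 1.45 (adjusted p 1.30e-11, SE 0.08) in replicates 1–3 and 1.12 (adjusted p 8.81e-10, SE 0.08) in replicates 4–6, and Prdx1 by 1.18 and 0.97. With 65–79*SE in replicates 1–3 they rose by 1.98 and 1.80. In all, 3 of the list were called higher and 1 lower with 65–79*PE in replicates 1–3, and 3, all higher, in replicates 4–6. Hvcn1, the voltage-gated proton channel that balances the charge moved by the oxidase, was lower with 65–79*PE and IFNγ in replicates 1–3, at -0.59 (adjusted p 0.0186, SE 0.19), and higher with 65–79*PE and Il-4 in replicates 4–6, at 1.14 (adjusted p 0.044, SE 0.32), both called. These lists were chosen with earlier results of these data known, and their counts stand beside 18.5% and 11.2% of all genes called with 65–79*PE and IFNγ in replicates 1–3 and 4–6.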

How the data were processed

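RNA-seq (single-end reads of TruSeq libraries, by the study's methods from the stranded mRNA kit) was measured in 36 RAW264.7 libraries, and each deposited table gives raw counts of reads per gene, made by the authors with featureCounts from uniquely aligned reads on GRCm38.p5 with Gencode M12 and not normalized. The submitters' processing notes also list R 3.4.1 and DESeq2 1.16.1. The aligner and the strand setting of the counting are not given in the sources used here, so reads of overlapping opposite-strand genes may not have been told apart.

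From those counts, edgeR 4.0.16 (R 4.3.3) with TMM scaling, filterByExpr and the quasi-likelihood test was fitted per table over all 18 libraries with 1 mean per group and label set, and over all 36 for the difference between tables. Contrasts were taken within replicates 1–3, within replicates 4–6, as their average, and as replicates 4–6 minus 1–3. P-values were adjusted by Benjamini-Hochberg over all genes tested, and 95% intervals came from the same fits. A gene was called at an adjusted p under 0.05 and a fold change over 1.5. The study describes the libraries as biological replicates from 2 independent experiments, without saying which library came from which. The labels do not name separate cultures, and p-values measure the spread between these libraries. The fits were tested on simulated data. Of 36 pairs of libraries of 1 group and label set, none agreed within counting noise (chi-square over degrees of freedom 5.95 to 214). Counting alone limits detection to a floor of 3 counts, which is 0.0541 to 0.166 CPM in the IFNγ table and 0.0950 to 0.172 CPM in the Il-4 table.

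Exon lengths and positions came from GENCODE M21 on GRCm38, a later release than that of the counts, and promoters from RefSeq. Transcripts were compared with blastn 2.17.0. Members and gene lists were chosen with earlier results of these data known. Of each list, the called genes with the 3 largest changes with 65–79*PE in a table could be named. Some genes of the lists are counted but not reported by name here. Alternatives were RLE scaling, DESeq2 1.42.0, no filter or at least 10 counts in every library, each label set alone, an additive or no label set term, no fold limit, a replicate block, another prior count for the likeness of genes, and leaving out each library in turn. Sample numbers were taken to pair libraries of 65–79*PE with PBS (correlation of deviations 0.158 to 0.689) and of the 2 peptides (0.110 to 0.759) in the Il-4 table, where every pair was over 0.1. The main tests left this pairing out, and only the replicate block used it.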

Additional observations from a re-analysis of the deposited data

Results flagged for a closer look

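Among the 6 subunits, 2 of 36 groups of 6 libraries held a library apart from the others by Dixon's ratio of gap to range. Chance alone gives about 1 in 20 groups when the 6 libraries share 1 level. These groups pooled both label sets, which can differ in level, so that rate need not hold here. Ncf4 with IFNγ and 65–79*SE had a ratio of 0.890, set by replicate 6 at 125 CPM, a library that lacked the IFNγ response. Ncf1 with IFNγ and 65–79*PE had a ratio of 0.673, set by replicate 4 at 227 CPM.

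Responses that differed between the label sets of the IFNγ table, as replicates 4–6 minus 1–3 on the log2 scale with an adjusted p under 0.05 in edgeR, were those to 65–79*SE of Cybb (-0.65), Ncf1 (0.98), Ncf4 (0.40) and Rac1 (0.24), and those to 65–79*PE of Cybb (1.27) and Ncf1 (0.86). The difference between the peptides was also unlike in the label sets for Cybb (-1.92). All values for 65–79*SE rest on the libraries labelled 65–79*SE, replicates 4–6, that lacked the IFNγ response.

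Responses that differed between the tables, as IFNγ minus Il-4 on the log2 scale, were those to 65–79*SE in replicates 1–3 of Cybb (1.53), Cyba (-0.70), Ncf1 (-0.63) and Ncf4 (-0.86). With 65–79*PE in replicates 1–3 they were those of Cybb (1.00), Ncf1 (-0.60) and Ncf4 (-0.59), in replicates 4–6 that of Cybb (1.80), and over both label sets those of Cybb (1.40) and Ncf4 (-0.36).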

How the results depend on the processing

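No member changed direction under any alternative in a comparison where it was called. Of 168 fold changes of members, 166 kept their side of the call with RLE scaling, 165 with DESeq2, 164 without a filter, 163 with at least 10 counts in every library and 166 with the replicate block. The members called with IFNγ and 65–79*SE over both label sets went from 1 to 0 with an additive label set term or with none. For the difference between label sets with Il-4 and 65–79*SE, 0 members became 1 with RLE scaling or at least 10 counts, and 2 with DESeq2, without a filter or with the replicate block. That block changed the number of members called in no other comparison. The 3 members called for the difference between tables with 65–79*PE in replicates 1–3 became 1 with at least 10 counts. The cause of these changes was not tested.

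With each library left out in turn, members called ranged from 1 to 3 with IFNγ and 65–79*PE in replicates 1–3 (1 without 65–79*PE replicate 2), and from 0 to 1 between the peptides with IFNγ over both label sets (1 without 65–79*PE replicate 3). With Il-4 and 65–79*SE they ranged from 0 to 2 in replicates 1–3 (2 without 65–79*SE replicate 1 and 0 without its replicate 2), from 0 to 1 in replicates 4–6 (1 without 65–79*SE replicate 6) and from 0 to 2 for the difference between label sets (1 without PBS replicate 4, and 2 without 65–79*SE replicate 1 or 6). For the difference between tables in replicates 1–3 they ranged from 2 to 4 with 65–79*SE and from 1 to 3 with 65–79*PE. In the other 21 comparisons the number did not change.

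Counts over all genes moved by more than 1.5 times under some alternatives, given here first without those that leave out a library. With IFNγ these were 2420 (909 to 2650) for 65–79*PE and 1008 (22 to 1124) for 65–79*SE over both label sets, 343 (112 to 536) for 65–79*SE in replicates 4–6, and 1091 (78 to 1186) between the peptides over both label sets. With Il-4 and 65–79*PE they were 621 (115 to 723) over both label sets, 1 (0 to 154) for their difference, 493 (434 to 763) in replicates 1–3 and 508 (302 to 805) in replicates 4–6. With Il-4 and 65–79*SE they were 440 (62 to 613), 554 (544 to 1555) for the difference and 313 (141 to 893) in replicates 4–6. Between the peptides with Il-4, 0 became up to 120 over both label sets, 77 for the difference, 19 in replicates 1–3 and 301 in replicates 4–6. The replicate block accounts for 743, 1555, 763, 780 and 154 of these (65–79*SE in replicates 4–6 and its difference, then 65–79*PE in replicates 1–3, 4–6 and its difference), and for 4 and 3 between the peptides in replicates 4–6 and over both label sets. With 1 library left out, the counts that moved as far were those of IFNγ and 65–79*SE in replicates 4–6 (102 without PBS replicate 6 to 577 without PBS replicate 4) and of the label set difference with IFNγ and 65–79*PE (587 without 65–79*PE replicate 3, 630 without PBS replicate 1). With Il-4 and 65–79*SE they were 346 without 65–79*SE replicate 2 to 1589 without its replicate 1 in replicates 1–3, 144 without 65–79*SE replicate 4 to 656 without its replicate 6 in replicates 4–6, and 0 without PBS replicate 3 to 1656 without 65–79*SE replicate 1 for the difference. With Il-4 and 65–79*PE they were 237 without 65–79*PE replicate 3 to 565 in replicates 1–3, 235 without 65–79*PE replicate 4 to 528 in replicates 4–6, and up to 21 without PBS replicate 1 for the difference. Between the peptides with Il-4, up to 1 and 15 genes were called in replicates 1–3 and 4–6.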

Other observations

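The genes whose pattern was most like that of a member were found by Pearson's r of log2 CPM over the 18 libraries of the IFNγ table, each centred on PBS of its label set, among 9092 genes with a mean of at least 10 CPM. The libraries share label sets and the IFNγ response, and the values are a description. For Cybb they were Csf3r (r = 0.977), the receptor of granulocyte colony-stimulating factor, Samhd1 (0.975), a nucleotide hydrolase, and Atp8a1 (0.962), a lipid flippase. For Ncf1 they were the macrophage genes Lyz2 (0.982) and Csf1r (0.974), then the histone gene Hist1h2bq (0.972), whose place Il6ra (0.971) took with a prior count of 0.5. For Ncf4 they were Galnt6 (0.967), Atp6v0d1 (0.959) and Ddx24 (0.956), and for Cyba Nubp2 (0.904), Tmem208 (0.886) and Ndufa3 (0.863). For Rac1 they were P2rx7 (0.939), Gm28439 (0.938) and mt-Nd2 (0.937), and for Rac2 Gpr137b (0.935), Gpr137b-ps (0.920) and Dcaf12 (0.907), where Gpr137b-ps is a pseudogene of Gpr137b.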
